A study of Mus musculus with 9 samples.

Results

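The hedgehog pathway genes described here are 9 genes of the 43346 in the deposited table, chosen by name: the co-receptors Gas1, Boc, and Cdon, the receptor Ptch1, the ligand trap Hhip, the signal transducer Smo, and the transcription factors Gli1, Gli2, and Gli3. All 9 genes passed the filter on low counts and were tested. They were measured by RNA-Seq of polyadenylated RNA in lung fibroblasts sorted from male Col1a1-GFP mice on an FVB background, which carry a GFP reporter under the collagen I promoter and were 18 months old (72 weeks in the sample labels). Aged sham libraries (n = 4) came from mice given 1 dose of saline into the trachea and aged bleo libraries (n = 5) from mice given 1 dose of bleomycin, a drug that injures the lung and leads to fibrosis. All lungs were taken at 30 days. The sort kept GFP+ cells without CD45, CD31, and EpCAM, so cells in which the reporter was silent are not represented. Libraries from young mice were not used here. The study describes its data points from animals as independent mice, and the sample labels do not say whether any library pooled lungs.

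Hedgehog ligands are secreted, lipid-carrying proteins that in the lung come mainly from epithelial cells and act on nearby mesenchymal cells. In the absence of ligand, Ptch1 keeps Smo inactive. Ligand, presented to Ptch1 by Gas1, Boc, or Cdon, releases Smo, which reaches the primary cilium and turns the Gli proteins toward activation of their targets. Gli1 and Ptch1 are themselves targets of the pathway, and their transcripts are commonly used as its readout, while Ptch1 and Hhip bind ligand and so restrain the signal.

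The libraries held 49921946 to 62370512 counts in aged sham and 53833507 to 68260600 in aged bleo. A gene without counts in a library could still be present at up to 0.0409 to 0.0605 CPM (counts divided by the TMM-normalized library size). Here 3 counts are the upper limit that a count of 0 allows. This limit covers counting error only, whereas the intervals of the fold changes given below also reflect the variation between libraries. Markers of the sorted-out cell types were low beside the general fibroblast markers. The 6 endothelial markers summed to 10.9 to 18.7 CPM over the 9 libraries. The 8 epithelial markers summed to 15.4 to 98.7 CPM, and the 6 leukocyte markers to 94.3 to 545 CPM. By contrast, the 7 general fibroblast markers summed to 24740 to 72360 CPM. The leukocyte sums reached the levels of the 9 genes, which ran from 26.8 CPM (Hhip, aged bleo 4) to 540 CPM (Cdon, aged sham 2). None of the markers listed for any cell type was at 0 counts in a library. The highest leukocyte sum was in aged bleo 4. Levels compared between libraries are TMM-normalized CPM, and levels compared between genes are FPKM values, which are per length, as deposited. In such bulk samples, fewer cells of a type and less RNA per cell cannot be told apart.

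Between the groups, 1 of the 9 genes, Cdon, was past both thresholds, which are an FDR (the Benjamini-Hochberg adjusted p over 16877 genes, edgeR's quasi-likelihood test) under 0.10 and a fold change over 1.5. Cdon fell in aged bleo. By comparison, 23.8% of all genes tested were past both thresholds, 12.3% being higher and 11.5% lower in aged bleo. At an FDR under 0.10 with any fold change, Ptch1 and Gli2 were higher and Gli1, Gas1, and Cdon lower, which is 5 of 9 genes beside 44.8% of all genes. The CPM ranges of the groups did not overlap for 4 of the 9 genes, Ptch1 and Gli2 being higher and Boc and Cdon lower in aged bleo, beside 32.2% of all genes. The median log2 fold change was 0.18 over the 9 genes and 0.01 over all genes tested. The genes therefore had no common direction, and their shares past a threshold are given as a description of a small list.

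**Figure D1:**
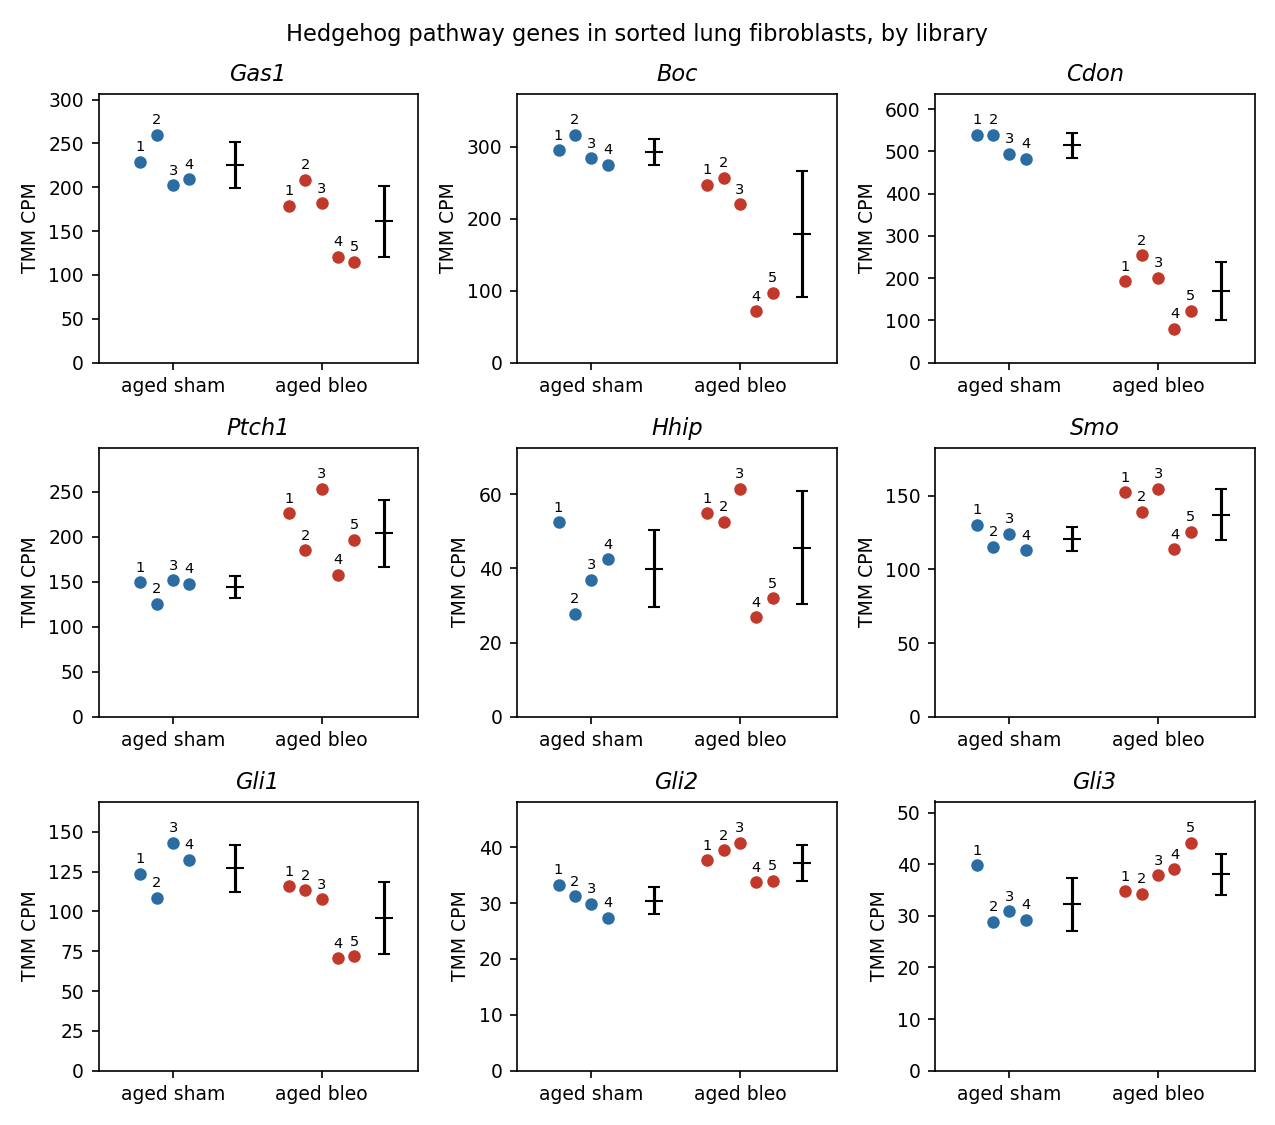
TMM-normalized CPM of the 9 hedgehog pathway genes (1 panel per gene) in each aged sham (n = 4) and aged bleo (n = 5) library. Points are libraries, horizontal lines are group means, and bars are SD. All 5 aged bleo libraries lie below all 4 aged sham libraries for Cdon and Boc and above them for Ptch1 and Gli2.

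Cdon, a cell-surface protein of the immunoglobulin superfamily that binds hedgehog ligands together with Ptch1 (ENSMUSG00000038119, chr9:35421128-35507652, GRCm38), had the largest difference of the 9 genes. The aged sham libraries 1 to 4 had 539, 540.0, 495, and 483 CPM, and the aged bleo libraries 1 to 5 had 193, 254, 201, 80.4, and 123 CPM. The aged bleo values were all under the aged sham values, and aged bleo 4 and 5 were the lowest. The means were 514 ± 29.7 CPM (SD, n = 4) in aged sham and 170.4 ± 68.5 CPM (SD, n = 5) in aged bleo, a 3.02-fold lower level (log2 fold change -1.59, SE 0.29, 95% interval -2.24 to -0.95, edgeR FDR = 0.00360). With aged bleo 4 and 5 both left out, a choice made after the data were seen, the log2 fold change was -1.26, and Cdon was still past both thresholds.

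Boc, a close relative of Cdon with the same ligand-binding role (ENSMUSG00000022687, chr16:44485045-44558897), also had ranges that did not overlap but was not past the FDR threshold. Its levels were 295, 317, 284, and 275 CPM in aged sham 1 to 4 and 247, 257, 220.2, 71.2, and 97.4 CPM in aged bleo 1 to 5. Most of the distance between the groups lay in aged bleo 4 and 5, while the other aged bleo libraries were just under the lowest aged sham library. The log2 fold change was -0.71 (SE 0.36, 95% interval -1.51 to 0.09, FDR = 0.148; means 293 ± 18.0 and 179 ± 87.6 CPM). This call depends on the test: DESeq2 (-0.72, FDR = 0.0846) and limma on log2 CPM (-0.89, FDR = 0.0923) put Boc past both thresholds, as did edgeR without aged bleo 2 (-0.88, FDR = 0.0875). Without aged bleo 4 and 5 the difference was -0.28 with an FDR of 0.0317, below the fold threshold. Leaving out both was chosen after the data were seen. As they were the lowest aged bleo libraries for Boc, a smaller difference was fixed in advance.

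Gas1, a membrane-anchored co-receptor of a different protein family (ENSMUSG00000052957, chr13:60174405-60177365), had 229, 260.1, 202, and 209 CPM in aged sham 1 to 4. It had 179, 208, 182, 121, and 115 CPM in aged bleo 1 to 5. The groups overlapped, since aged bleo 2 was above aged sham 3. The difference, -0.48 on the log2 scale (SE 0.18, 95% interval -0.90 to -0.07; means 225 ± 26.0 and 161 ± 41.0 CPM), was past the FDR threshold (FDR = 0.0673) but under the 1.5-fold threshold. The FDR was 0.10 or more in 5 of 20 alternatives (0.0259 to 0.166 over all of them). Without aged bleo 2 the difference was -0.59 with an FDR of 0.0259, past both thresholds.

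The co-receptors are the most abundant of the 9 genes per length in aged sham, so their summed level was also taken. Gas1, Boc, and Cdon together had 89.3, 97.4, 83.1, and 79.96 FPKM in aged sham 1 to 4 and 61.0, 67.5, 57.1, 30.2, and 33.2 FPKM in aged bleo 1 to 5. Each aged bleo library was below each aged sham library. Set against Ptch1, the receptor they work with, the sum was 11.3 to 15.9 times the Ptch1 level in aged sham and 3.41 to 7.59 times it in aged bleo, both in FPKM. These sums and ratios are a description with no test of their own. They follow from the levels of the single genes and are no separate finding, since Cdon and Boc were lower and Ptch1 higher without overlap.

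Markers of fibroblast subtypes and of other mesenchymal cells were examined beside the co-receptors, and they did not share a direction. The counts below stand beside 12.3% higher and 11.5% lower past both thresholds over all genes tested. The 6 adventitial fibroblast markers (Pi16, Dpp4, Ly6a, Dcn, Col14a1, and Cd34) were all past both thresholds and lower in aged bleo, and their sum was 15080 to 17020 CPM in aged sham and 7223, 8823, 6320, 2517, and 3076 CPM in aged bleo 1 to 5. Of 6 alveolar fibroblast markers, 3 were lower and 1 higher past both thresholds, with sums of 2327 to 3760 CPM in aged sham and 830.3 to 2405 CPM in aged bleo. Both sums, like Cdon, were lowest in aged bleo 4 and next lowest in aged bleo 5. The peribronchial fibroblast sum had the same order (205.5 and 334.8 CPM). Of the aged bleo libraries, aged bleo 4 also had the lowest smooth muscle and pericyte sums, but not the lowest general fibroblast sum. The 6 peribronchial fibroblast markers, a list that holds Hhip, summed to 424 to 517 CPM and 206 to 478 CPM, with 1 of them lower past both thresholds and 5 not past them. Of the 7 general fibroblast markers, 4 were higher (Col1a1, Col1a2, Col3a1, and Pdgfrb) and 1 lower (Dcn, which is also in the adventitial list), with sums of 24740 to 30480 CPM in aged sham and 54930 to 72360 CPM in aged bleo. Of 6 pericyte markers, 3 were higher and 1 lower (sums of 239.9 to 401 and 278 to 466 CPM), and of 7 smooth muscle markers, 3 were lower (3094 to 6306 and 2252 to 3402 CPM). Their part in the differences of Cdon, Boc, and Gas1 was not tested.

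Ptch1, the ligand receptor that holds Smo inactive (ENSMUSG00000021466, chr13:63508328-63573598), had 149, 126, 152, and 148 CPM in aged sham 1 to 4. In aged bleo 1 to 5 it had 226, 185, 254, 158, and 197 CPM. The groups did not overlap, although aged bleo 4 was only just above the highest aged sham library. Ptch1 was 1.42-fold higher in aged bleo (means 144 ± 12.1 and 204 ± 37.0 CPM, log2 fold change 0.50, SE 0.14, 95% interval 0.20 to 0.81, FDR = 0.0197), past the FDR threshold, as in all 20 alternatives, and under the fold threshold. Without aged bleo 4 and 5 the log2 fold change was 0.62 with an FDR of 0.00629, past both. Leaving out both libraries was chosen after the data were seen, and aged bleo 4 was the lowest aged bleo library for Ptch1. This value is therefore no separate support. The direction of Ptch1 was opposite to that of the co-receptors in the same libraries. It was also opposite to that of Gli1, the other readout (log2 fold change -0.41, edgeR FDR = 0.0968), whose groups overlapped.

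Promoter sequences are given for Ptch1, a textbook Gli target that was higher, and for Cdon, the gene with the largest difference, because they are unlike in base composition. They are the 250 bases before a RefSeq transcription start (GRCm38.p6), 5′ to 3′ on the gene's strand, with CG dinucleotides in capitals. The Ptch1 stretch is chr13:63565736-63565985 (minus strand) and the Cdon stretch is chr9:35451826-35452075 (plus strand). Both starts lie inside the deposited spans of their genes, which begin upstream of them, at chr9:35421128 for Cdon and chr13:63573598 for Ptch1. The stretches thus lie before internal starts and not before the outermost annotated starts. Their base composition describes these internal starts only.
Ptch1: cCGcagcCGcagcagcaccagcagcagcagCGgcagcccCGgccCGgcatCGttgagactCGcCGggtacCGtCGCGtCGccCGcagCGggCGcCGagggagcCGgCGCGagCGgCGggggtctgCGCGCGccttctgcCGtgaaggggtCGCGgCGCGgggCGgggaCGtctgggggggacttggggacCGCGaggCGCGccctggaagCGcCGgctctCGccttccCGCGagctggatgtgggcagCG
Cdon: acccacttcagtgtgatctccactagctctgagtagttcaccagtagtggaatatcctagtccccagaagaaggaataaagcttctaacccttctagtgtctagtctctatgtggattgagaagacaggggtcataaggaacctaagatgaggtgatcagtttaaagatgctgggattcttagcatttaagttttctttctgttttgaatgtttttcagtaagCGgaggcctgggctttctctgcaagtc
The printed Ptch1 stretch holds 41 CG dinucleotides and the Cdon stretch holds 1. Over the 300-base window that also takes in 50 bases after the start, Ptch1 had 47 CG and 76.3% G and C, and Cdon had 3 CG and 44.7% G and C, where the medians over all 32851 windows in the table were 7 CG and 52.7%. The Gli-binding letters GACCACCCA were searched on both strands and were in none of the 7 matched windows of these genes, with 0.253% of all windows holding them. Their shorter core CCACCCA, which is part of the longer motif, was in none of the 7 either, with 9.3% of all windows holding it. A window without these letters says nothing about binding elsewhere. Gli1 and Boc had no entry.

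Hhip, a membrane-bound protein that captures hedgehog ligands (ENSMUSG00000064325, chr8:79966115-80058006), had levels of 52.4, 27.7, 37.0, and 42.5 CPM in aged sham 1 to 4 and 54.8, 52.5, 61.5, 26.8, and 31.9 CPM in aged bleo 1 to 5. The aged bleo libraries split, with 1 to 3 above the highest aged sham library and 4 and 5 in or under the lower part of the aged sham range. The log2 fold change was 0.19 (SE 0.27, 95% interval -0.42 to 0.80, FDR = 0.618; means 39.9 ± 10.3 and 45.5 ± 15.2 CPM), and the interval includes a 1.5-fold higher level. Without aged bleo 4 and 5 the log2 fold change was 0.49 with an FDR of 0.0876, under the fold threshold. Leaving out both was chosen after the data were seen. As they were the lowest aged bleo libraries for Hhip, a higher value was fixed in advance.

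Smo, the seven-pass membrane protein that carries the signal inward (ENSMUSG00000001761, chr6:29735694-29761365), had 130.4, 115, 124, and 113 CPM in aged sham 1 to 4 and 152, 139, 155, 114, and 126 CPM in aged bleo 1 to 5. The groups overlapped, and the same aged bleo libraries 1 to 3 were the highest. The log2 fold change of 0.18 (SE 0.10, 95% interval -0.05 to 0.41, FDR = 0.192; means 121 ± 7.99 and 137 ± 17.5 CPM) passed neither threshold, and its interval leaves out a 1.5-fold difference in either direction. Smo passed the FDR threshold alone without aged bleo 4 (0.24, FDR = 0.0659) and without aged bleo 4 and 5 (0.30, FDR = 0.0186). Leaving out both was chosen after the data were seen. As they were the lowest aged bleo libraries for Smo, a higher value was fixed in advance.

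Gli1, an activator that is itself induced by hedgehog signalling (ENSMUSG00000025407, chr10:127329889-127341589), had 124, 109, 143, and 132 CPM in aged sham 1 to 4. Its levels in aged bleo 1 to 5 were 116, 113, 108, 70.5, and 71.7 CPM. Aged bleo 1 to 3 lay in or at the edge of the aged sham range, and aged bleo 4 and 5 were below it. Gli1 was lower in aged bleo at the FDR threshold only (FDR = 0.0968, log2 fold change -0.41, SE 0.17, 95% interval -0.80 to -0.02; means 127 ± 14.7 and 95.8 ± 22.7 CPM). This call was not stable, since the FDR was not under 0.10 in 9 of 20 alternatives (0.0591 to 0.207 over all of them). Without aged bleo 4 and 5 the difference was -0.18 with an FDR of 0.18. Leaving out both was chosen after the data were seen. As they were the lowest aged bleo libraries for Gli1, a smaller difference was fixed in advance. Gli1 shares exon bases with Arhgap9 on the opposite strand, and the sources do not say whether reads were counted by strand. Arhgap9 had 168 to 1491 counts per library, the most in aged bleo 4, against 3918 to 7654 for Gli1.

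Gli2, the main activator downstream of Smo (ENSMUSG00000048402, chr1:118834132-119053619), had 33.3, 31.3, 29.9, and 27.4 CPM in aged sham 1 to 4 and 37.7, 39.5, 40.8, 33.8, and 34.0 CPM in aged bleo 1 to 5. The lowest aged bleo library was above the highest aged sham library, by a small margin. The log2 fold change was 0.29 (SE 0.08, 95% interval 0.10 to 0.48, FDR = 0.0283; means 30.5 ± 2.49 and 37.2 ± 3.19 CPM), past the FDR threshold, as in all 20 alternatives, and under the fold threshold.

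Gli3, the main repressor among the Gli factors (ENSMUSG00000021318, chr13:15463235-15730026), had 39.9, 28.9, 31.0, and 29.3 CPM in aged sham 1 to 4 and 34.8, 34.3, 37.8, 39.0, and 44.2 CPM in aged bleo 1 to 5. Aged sham 1 was within the aged bleo range, and the other aged sham libraries were below it. The difference of 0.24 on the log2 scale (SE 0.12, 95% interval -0.02 to 0.50, FDR = 0.139; means 32.2 ± 5.16 and 38.0 ± 3.99 CPM) passed neither threshold, but without aged sham 1 it was 0.36 with an FDR of 0.0265. Unlike for Gli1, aged bleo 4 and 5 had the highest Gli3 levels of the aged bleo libraries.

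**Figure D2:**
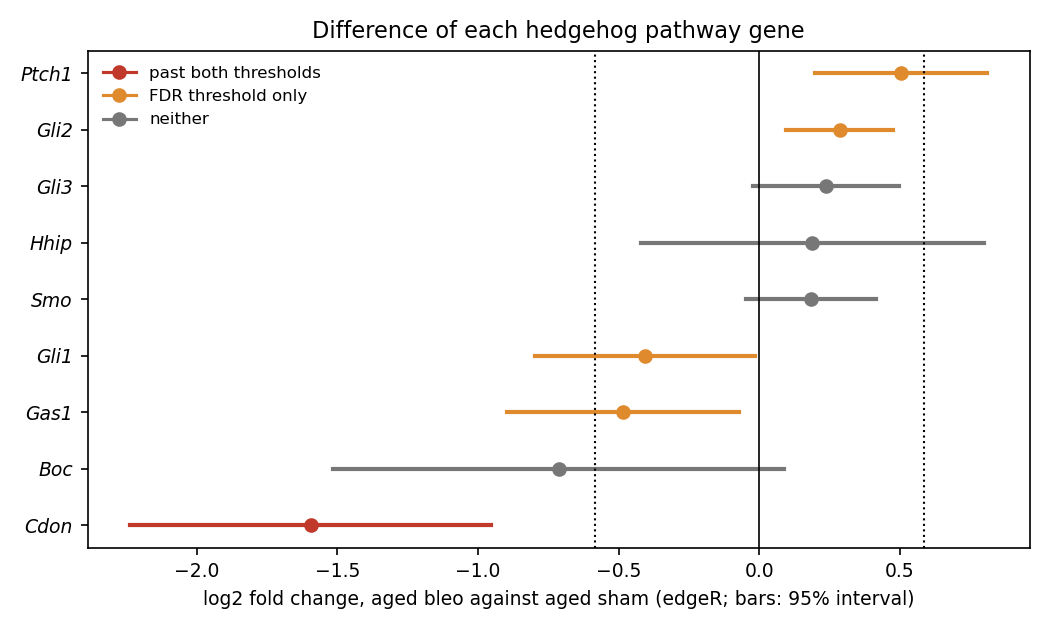
Log2 fold change of each hedgehog pathway gene, aged bleo (n = 5) against aged sham (n = 4), with 95% intervals as bars. Dotted lines mark a 1.5-fold difference. Cdon, at -1.59, is the gene past both thresholds, and the interval of Boc, from -1.51 to 0.09, is the widest.

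Because the Gli genes differ in direction, their share of the summed Gli level was taken in each library. In FPKM, Gli1 made up 78.9%, 79.7%, 83.8%, and 83.7% of the sum of Gli1, Gli2, and Gli3 in aged sham 1 to 4. Its share was 77.6%, 76.8%, 74.8%, 68.2%, and 67.2% in aged bleo 1 to 5. The ranges of this share did not overlap (means 81.5 ± 2.58% and 72.9 ± 4.91%), which is a description with no test. The share follows from the levels of the single Gli genes, whose directions were already seen, and is no separate finding. The CPM ranges of Gli1 itself overlapped between the groups. In aged bleo 4 and 5, Gli2 held 17.4% and 17.0% and Gli3 held 14.4% and 15.8% of the sum. In aged sham, by contrast, Gli2 held 9.23% to 12.3% and Gli3 6.92% to 9.73%.

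**Figure D3:**
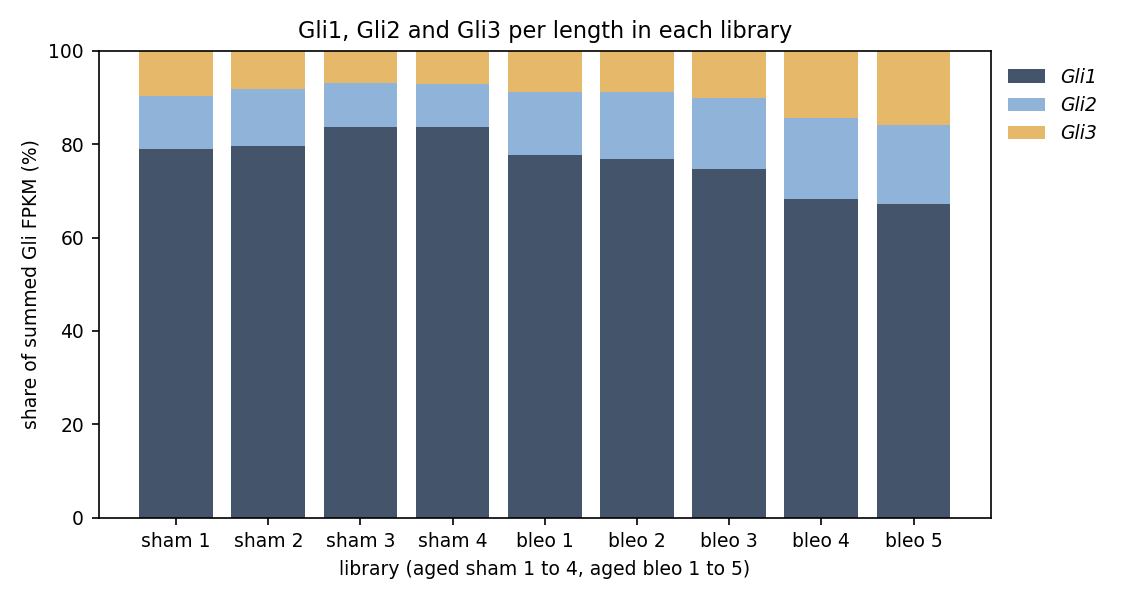
Share of the summed Gli1, Gli2, and Gli3 FPKM held by each of the 3 genes, in percent, in each aged sham and aged bleo library. Gli1 holds 78.9% to 83.8% in aged sham and 67.2% to 77.6% in aged bleo.

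Per length, the order of the 9 genes in aged sham was Gas1 (31.9 ± 3.99 FPKM), Cdon (28.0 ± 1.90), Boc (27.6 ± 2.05), Gli1 (14.5 ± 1.64), Smo (13.4 ± 0.961), Ptch1 (6.89 ± 0.542), Hhip (3.41 ± 0.857), Gli2 (1.86 ± 0.169), and Gli3 (1.41 ± 0.225). The ranges of neighbours overlapped within the co-receptors, between Gli1 and Smo, and between Gli2 and Gli3, while the steps from Boc to Gli1, Smo to Ptch1, Ptch1 to Hhip, and Hhip to Gli2 were free of overlap. In aged bleo the order was Gas1 (23.3 ± 5.45 FPKM), Boc (17.1 ± 8.17), Smo (15.6 ± 1.68), Gli1 (11.2 ± 2.46), Ptch1 (10.0 ± 1.63), Cdon (9.42 ± 3.61), Hhip (3.97 ± 1.25), Gli2 (2.32 ± 0.142), and Gli3 (1.71 ± 0.202). There, the ranges of all neighbours overlapped except those of Gli2 and Gli3. Cdon moved from rank 2 to rank 6, and Gas1 stayed first. Over all tested genes, the mean FPKM of these 9 genes ranked between percentile 42.2 (Gli3) and percentile 95.8 (Gas1).

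The SD of the CPM values was larger in aged bleo than in aged sham for 8 of the 9 genes, Gli3 being the exception. Aged bleo 4 was the lowest aged bleo library for 7 genes (Gli1, Gli2, Ptch1, Hhip, Smo, Boc, and Cdon), aged bleo 5 for Gas1, and aged bleo 2 for Gli3. For neither count was the share over all genes taken, so they are not read as a trait of these genes. Aged bleo 4 also had a leukocyte sum of 545 CPM, against 97.9, 112.3, 147.7, and 143.9 CPM in aged bleo 1, 2, 3, and 5. Its TMM normalization factor (1.075) was the highest. The part of these in the low values was not tested. The genes whose variation within groups was most like that of Gli1, Ptch1, and Hhip were taken from 15261 genes by Pearson correlation of log2 CPM over the 9 libraries, with each group's mean removed. For Gli1 these were Gpr39 (r = 0.98), 4921504A21Rik (0.98), and Lypd1 (0.98). For Ptch1 they were Zdhhc9 (0.98), Col4a1 (0.94), and Tmem206 (0.94), and for Hhip they were Ren1 (0.97), Gpr124 (0.97), and Phf21a (0.96). These values are the highest of many and describe 9 libraries made with the same kit, whose depths differ within the range given above. With aged bleo 4 and 5 left out (7 libraries), they ranged from 0.86 (Lypd1) to 0.99 (Zdhhc9).

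The other genes of the pathway were taken from fixed lists by role, of which 66 of 69 were tested, and 12 of these rose, 9 fell, and 45 did not pass both thresholds, beside 12.3% higher and 11.5% lower over all genes tested. Their median log2 fold change was -0.09. The ligands were barely detected in these cells. Ihh (Indian hedgehog) was at 0.646, 1.35, 1.01, and 0.424 CPM in aged sham 1 to 4 and at 0.242, 0.267, 0.0934, 0.150, and 0.0732 CPM in aged bleo 1 to 5. All aged bleo libraries were lower, and Ihh fell (log2 fold change -2.37, SE 0.45, FDR = 0.00471), on 4 to 79 counts per library. Of the 8 epithelial markers, 1 was also lower past both thresholds, Ager of alveolar type I cells (19.8 ± 11.6 and 1.98 ± 0.535 CPM, log2 fold change -3.32, FDR = 9.99e-04, ranges without overlap), 1 was higher (Krt8), and 6, Epcam among them, did not pass. Their part in the fall of Ihh was not tested. Shh (Sonic hedgehog) had 0 to 3 counts and Dhh (Desert hedgehog) 9 to 23 counts per library, too few to test, and part of the Dhh reads may belong to Rhebl1, whose exons overlap.

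Of the 8 genes for ligand lipidation, release, and matrix carriage, 5 rose and 2 fell, with a median log2 fold change of 0.76. Scube1, a secreted protein of the family that takes up released ligand, had 13.0, 18.7, 15.7, and 13.2 CPM in aged sham 1 to 4 and 302, 178, 256, 259, and 243 CPM in aged bleo 1 to 5. The groups were far apart, and Scube1 rose 16.4-fold (log2 fold change 4.03, SE 0.19, FDR = 7.66e-06). Its relative Scube2 rose with overlapping ranges (1.30, SE 0.31, FDR = 0.0121; 10.3 ± 3.93 and 25.4 ± 7.77 CPM). Hhat, the acyltransferase that adds palmitate to the ligands, rose by 0.77 (SE 0.18, FDR = 0.00988), Ext1, a heparan sulfate polymerase, by 0.80 (SE 0.10, FDR = 6.3e-04), and Adam10, a cell-surface protease, by 0.74 (SE 0.12, FDR = 0.00230), all on the log2 scale. Disp1, the transporter that releases ligand from producing cells, fell 1.98-fold (40.1 ± 6.20 to 20.3 ± 5.20 CPM, FDR = 0.00523). Gpc3, a glypican that binds hedgehog ligands at the cell surface, fell 2.79-fold from a high level (1502 ± 118 to 539 ± 274 CPM, FDR = 0.0127).

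Of the other receptors and cell-surface regulators, 4 of 6 did not pass both thresholds. Gpr161, a ciliary receptor that restrains the pathway, fell 1.54-fold (-0.62, SE 0.16, FDR = 0.0184), and was under the fold threshold in 5 of the alternatives.

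No gene of the 14 intracellular regulators of Gli proteins was past both thresholds (edgeR), and their median log2 fold change was 0.12. At an FDR under 0.10 with any fold change, which 44.8% of all genes tested passed, 7 of the 14 were higher and 1 lower, with log2 fold changes from -0.41 to 0.55. The highest was Sufu, which holds Gli proteins in the cytoplasm, at 35.2, 27.8, 28.2, and 27.3 CPM in aged sham 1 to 4 and 41.6, 40.6, 46.6, 45.2, and 42.0 CPM in aged bleo 1 to 5. Those ranges did not overlap, and the difference of 0.55 (SE 0.09, FDR = 0.00246) corresponds to 1.46-fold. Of the 20 genes for the cilium and intraflagellar transport, none was past both thresholds either. Their log2 fold changes ran from -0.55 to 0.26 with a median of -0.21, and 17 of the 20 were negative. At the FDR threshold, 9 were lower and 1 higher. The 44.8% of all genes tested counts both directions together. At this threshold the share over all genes was not taken for each direction. This split and that of the 14 regulators are therefore descriptions only.

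Of the 17 tested among 18 other textbook hedgehog targets, 7 rose, 4 fell, and 6 did not pass both thresholds, with a median log2 fold change of 0.32. The forkhead factors Foxf2 and Foxl1, which mark lung and gut mesenchyme, rose by 2.34 (16.0 ± 2.93 to 81.1 ± 15.3 CPM, FDR = 4.1e-05) and 1.19 (6.12 ± 0.222 to 14.0 ± 1.53 CPM, FDR = 7.4e-05). Snai1, a transcriptional repressor of epithelial genes, rose by 1.86 (FDR = 6.5e-05). The cell cycle genes of the list also rose: Ccnd1 (1.88, FDR = 0.0170), Ccnd2 (0.69, FDR = 0.00310), Ccne1 (2.79, FDR = 0.00671), and Foxm1 (2.28, FDR = 0.00787). The ranges overlapped for Ccnd1, whose exons overlap those of LTO1. LTO1 had up to 3293 counts in a library, against 827 to 11193 for Ccnd1. Foxf2 shares exon bases with Gm27516, which had up to 371 counts, against 727 to 7555 for Foxf2. Genes sharing exon bases with Foxm1 had up to 120 counts, against 175 to 2818 for Foxm1. Without aged sham 1, Ccnd1 was at 2.497 (FDR = 0.00449), and without aged bleo 4 and 5, Ccne1 was at 1.90 and Foxm1 at 1.53, all past both thresholds. In contrast, Osr1 (-1.43, FDR = 0.0231) and Osr2 (-1.34, FDR = 0.00353), factors of early lung mesenchyme, and the growth factor Igf2 (-2.28, FDR = 0.00101) fell. The remaining gene that fell was Nkx6-1, at under 1 CPM on average, which is named after its values were seen. The textbook targets thus moved in both directions.

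**Figure D4:**
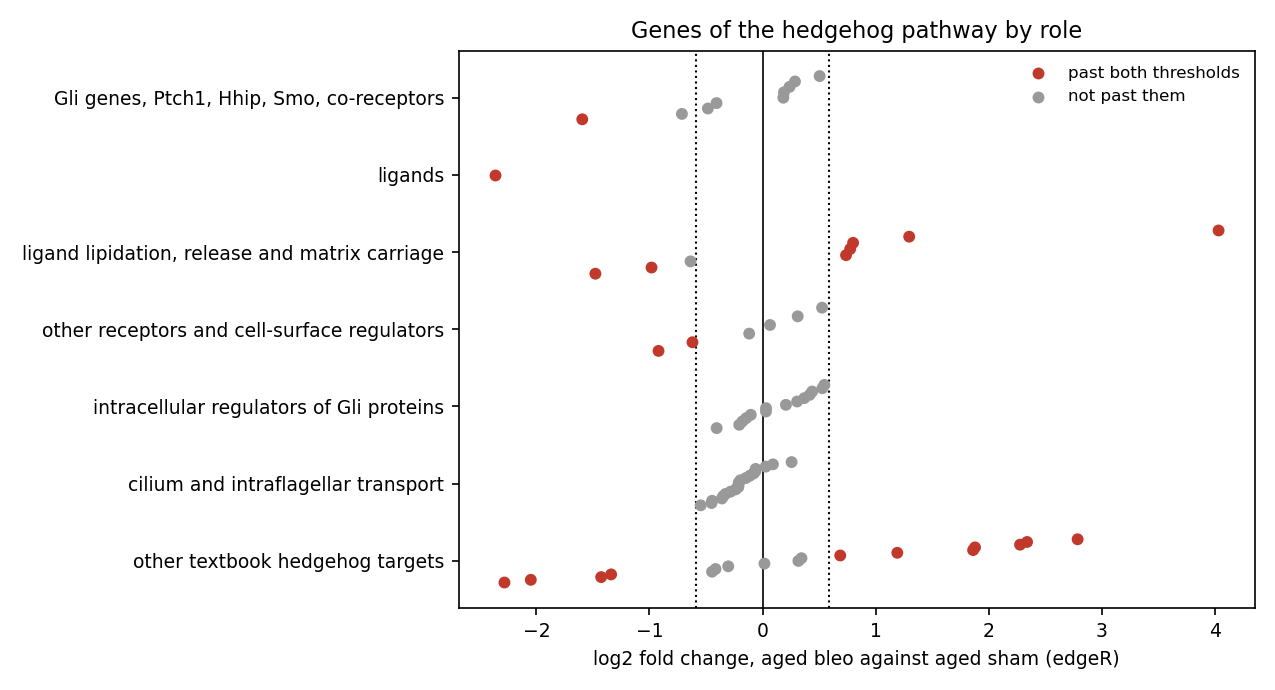
Log2 fold change, aged bleo against aged sham, of each tested gene of the hedgehog pathway, with 1 row of points per role. Dotted lines mark a 1.5-fold difference and red points are past both thresholds. Scube1, at 4.03, stands farthest to the right, and no gene of the intracellular or cilium rows is past both thresholds.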

How the data were processed

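RNA-Seq of sorted Col1a1-GFP lung fibroblasts was analysed in 4 aged sham and 5 aged bleo libraries, grouped by their sample labels. The authors deposited 1 table of whole-number read counts per gene, without normalization, and FPKM values, which the authors scaled by gene length and library size. The submitters' processing notes name bcl2fastq, STAR 2.5.2b, Subread, featureCounts, and mm10 (GRCm38). Strand and multimapping settings are not given in the sources used here, so reads of overlapping genes may not be separated.

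Genes whose counts averaged 25 or more were tested with edgeR 4.0.16 (TMM, glmQLFit, glmQLFTest) in R 4.3.3, with no covariate, and FDR values are Benjamini-Hochberg adjusted over 16877 genes. Standard errors came from the fold change and its F value. Groups were also compared with DESeq2 1.42.0, limma 3.58.1 on log2 CPM, log2(FPKM + 0.1), and log2(FPKM + 1), other normalizations and filters, stricter thresholds, a replicate block, and each library left out. Tests were tried on simulated data. Log2 CPM for correlations used a prior count of 2.

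The 9 genes and the lists of pathway and marker genes were chosen with earlier results of these data known. Named are the 9 genes, the 3 ligands, Sufu, and listed pathway genes past both thresholds with a mean of at least 1 CPM, besides the 3 genes most like each of Gli1, Ptch1, and Hhip. A listed gene that the rule names is not reported here. Promoters came from RefSeq (GRCm38.p6), in which 7 of the 9 genes matched. Gene positions are as deposited, with the same start and end as GENCODE M21 for 78.9% of shared identifiers.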

Additional observations from a re-analysis of the deposited data

Results flagged for a closer look

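Of the 64 groups of libraries tested for an outlying value (each named pathway gene in each group, Dixon's ratio at the 95% level, which chance passes in about 1 in 20), 5 had one, all in aged sham. Among the 9 genes, Ptch1 in aged sham 2 was at 125.8 CPM, the next lowest being 147.9 CPM. Aged sham 1 was the highest for Sufu (35.18 CPM, next 28.18), for Ccnd1 (52.2 CPM, next 16.98), and for Foxm1 (7.915 CPM, next 3.901). Aged sham 4 was the highest for Foxl1 (6.453 CPM, next 6.023). With aged sham 1 left out, Sufu differed by 0.64 on the log2 scale with an FDR of 7.9e-04 (edgeR), past both thresholds.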

How the results depend on the processing

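Cdon was past both thresholds and Gli1, Gli2, Gli3, Hhip, and Smo were not in all 20 alternatives, with Cdon between -1.78 and -1.26. None of the 9 genes, nor of the pathway genes named by the rule, changed sign in an alternative; these did not cover Nkx6-1, the marker genes, or Arhgap9. DESeq2, limma on log2 CPM, limma on log2(FPKM + 0.1), and limma on log2(FPKM + 1) each had 2 of the 9 genes past both thresholds, both lower, the added gene being Boc at -0.72, -0.89, -0.85 (FDR = 0.098), and -0.80 (FDR = 0.0997). Leaving out each library in turn gave 1 to 3 of the 9 genes, with 0 higher and 1 to 3 lower, the 3 without aged bleo 2, where Gas1 (-0.59) and Boc (-0.88) joined Cdon; the ranges were -0.59 to -0.38 for Gas1, -0.88 to -0.52 for Boc, and 0.41 to 0.57 for Ptch1. Leaving out both aged bleo 4 and 5, chosen after seeing the data, gave 2 genes, 1 higher (Ptch1, 0.62) and 1 lower (Cdon). Over all genes, 4022 were past both thresholds, 1785 on log2(FPKM + 1) (960 higher and 825 lower), 2158 at stricter thresholds (FDR 0.05, fold change 2) (1224 higher and 934 lower), and 3525 to 4597 without 1 library (1876 to 2314 higher and 1639 to 2283 lower). Among other named genes, Ihh (-0.13) and Hhat (0.23) were not past the fold threshold on log2(FPKM + 1), nor was Hhat (0.57) without aged bleo 4 and 5 or Ccnd2 (0.58) without aged sham 2. The cause of these changes was not tested, except that the large pseudocount lowers the fold change of low genes by construction. Replicate numbers 1 to 4 did not pair the libraries (correlations of their deviations 0.09, 0.06, -0.13, and 0.33, with 1 of 4 aged sham libraries most like its own number); with the numbers as a replicate block, 3541 genes and 1 of the 9 genes (Cdon, -1.60, FDR = 0.0138) were past both thresholds, and no call among the 9 genes changed. Depth limits Shh and Dhh, and Ihh rests on few counts.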
